A study of Mus musculus with 6 samples.

Results

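The CXC chemokines are small secreted proteins that steer leukocytes, and 10 of their genes, Cxcl1, Cxcl2, Cxcl3, Cxcl5, Cxcl9, Cxcl10, Cxcl11, Cxcl13, Cxcl14 and Cxcl16, were examined in macrophages exposed to the fungus Candida albicans. These members were chosen by gene symbol from the 54532 genes of the deposited expression table, and each symbol matched 1 gene. RNA sequencing had been performed on 3 wild type (WT) libraries, replicates 1, 2 and 3, and on 3 libraries from mice lacking progranulin (PGRN KO), replicates 4, 5 and 6. Progranulin is a secreted glycoprotein encoded by Grn. All mice were of strain C57BL/6J, and no age was given. The study's methods state that sex and age were matched. They name the Jackson Laboratory as source of the PGRN KO mice and Chongqing Medical University as source of the WT mice. Genotype and source of the mice therefore cannot be told apart. According to the labels the cells of both genotypes were macrophages taken from the peritoneal cavity, plated at 2000000 per well, and held with the fungus for 6 hours at 1 fungal cell per macrophage. The text of the study instead describes sequenced macrophages grown from bone marrow and another ratio of fungus to cells, so the sources differ on the origin of the cells and on the dose, and the labels are used here. Every library came from cells that had met the fungus, so the comparison is between genotypes and has no unexposed baseline. Nothing states that replicates came from separate animals or cultures, and p-values therefore measure only the spread between these libraries.

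CXC chemokines carry a pair of conserved cysteines separated by a single residue. CXCL1, CXCL2, CXCL3 and CXCL5 bind the receptor CXCR2 and draw neutrophils to sites of infection, and macrophages transcribe several of them rapidly under NF-kB after microbial sensing. CXCL9, CXCL10 and CXCL11 bind CXCR3 on activated T cells and natural killer cells and are classical interferon-induced genes. CXCL13 binds CXCR5 and guides B cells, CXCL16 is a membrane-anchored ligand of CXCR6 that proteases can shed, and CXCL14 is a chemokine of epithelia and other tissues. Accordingly the members were grouped as neutrophil-attracting (Cxcl1, Cxcl2, Cxcl3 and Cxcl5), interferon-induced (Cxcl9, Cxcl10 and Cxcl11) and other (Cxcl13, Cxcl14 and Cxcl16).

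The stretches of genome just upstream of Cxcl1, Cxcl2, Cxcl3 and Cxcl10, the abundant members, and of Cxcl9, the neighbour of Cxcl10, are given here because the groups are defined by their inducing pathways. Upstream sequences were taken from RefSeq on GRCm38.p6 and were found for 7 of the 10 members, all but Cxcl5, Cxcl11 and Cxcl16. Each window held the 250 bases before the RefSeq start. The last 4 bases for Cxcl1 and the last 28 for Cxcl2 lie within the deposited gene model and are not printed. Capitals mark matches, on either strand, to GGNNNTTCC, a form of the kB site of NF-kB, or to GAAANNGAA, the core of the interferon-stimulated response element. All 5 lie on chromosome 5, with Cxcl1, Cxcl2 and Cxcl3 on the plus strand (chr5:90890995-90891240, chr5:90903649-90903870 and chr5:90785851-90786100 for the stretches shown). Cxcl10 and Cxcl9 lie on the minus strand, and each sequence is written 5′ to 3′ toward its gene (chr5:92348890-92349139 and chr5:92328080-92328329).
Cxcl1: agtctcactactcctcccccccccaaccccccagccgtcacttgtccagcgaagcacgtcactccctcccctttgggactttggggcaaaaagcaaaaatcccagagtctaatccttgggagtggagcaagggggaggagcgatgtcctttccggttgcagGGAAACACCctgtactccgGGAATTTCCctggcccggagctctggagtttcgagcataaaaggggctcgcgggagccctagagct
Cxcl2: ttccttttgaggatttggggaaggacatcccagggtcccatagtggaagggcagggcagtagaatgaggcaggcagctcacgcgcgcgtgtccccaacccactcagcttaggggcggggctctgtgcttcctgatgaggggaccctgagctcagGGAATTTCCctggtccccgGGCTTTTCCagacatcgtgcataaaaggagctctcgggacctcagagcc
Cxcl3: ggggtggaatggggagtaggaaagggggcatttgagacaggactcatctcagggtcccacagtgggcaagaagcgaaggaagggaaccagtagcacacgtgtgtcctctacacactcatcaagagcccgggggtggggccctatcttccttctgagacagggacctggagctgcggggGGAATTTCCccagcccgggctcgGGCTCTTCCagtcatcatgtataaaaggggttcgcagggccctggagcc
Cxcl10: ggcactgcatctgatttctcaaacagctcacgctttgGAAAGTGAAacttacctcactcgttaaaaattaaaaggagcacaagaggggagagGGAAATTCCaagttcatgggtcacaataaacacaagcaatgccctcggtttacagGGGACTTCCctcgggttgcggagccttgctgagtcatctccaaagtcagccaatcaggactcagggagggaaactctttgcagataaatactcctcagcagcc
Cxcl9: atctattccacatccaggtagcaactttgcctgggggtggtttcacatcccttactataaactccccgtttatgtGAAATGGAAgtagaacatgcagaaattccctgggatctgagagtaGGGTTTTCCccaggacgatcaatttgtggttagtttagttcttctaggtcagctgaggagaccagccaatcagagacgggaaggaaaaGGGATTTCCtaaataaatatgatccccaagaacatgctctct

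Each of these 5 stretches held the kB form at 2 places, and the windows of Cxcl13 and Cxcl14 held it at 0. Among 32851 RefSeq promoter windows of the same length 15.7% held it. The match GGAATTTCC, singled out after the sequences were seen, began 70, 96 and 72 bases before the starts of Cxcl1, Cxcl2 and Cxcl3, and on the opposite strand 158 bases before the start of Cxcl10. It was present in 0.29% of all windows. The interferon core was matched once in the windows of Cxcl10 (GAAAGTGAA, 213 bases before the start), Cxcl9 (GAAATGGAA, 175 bases) and Cxcl14 (GAAACAGAA, 172 bases), and in 7.1% of all windows. No match to it lay in the windows of Cxcl1, Cxcl2 and Cxcl3. The letters TTCNNNGAA, the core of the gamma-activated site, occurred in 7.0% of all windows and, among the members, in that of Cxcl14. TATAAA occurred in 12.4% of all windows and in those of Cxcl3, Cxcl9 and Cxcl13, 30, 195 and 46 bases before the start. A match describes letters and does not show that a factor binds there.

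Expression was deposited as FPKM, fragments scaled to the kilobases of the gene model and to the size of the library. The libraries held 15996786 to 17551619 fragments in total, read back from the FPKM values, and Grn checked the labels with 17294 to 20372 fragments in WT and 0 or 1 in PGRN KO. PGRN KO replicate 6 stood apart from the other libraries. Across tested genes its deviation from the mean of all libraries correlated with gene length at a Spearman coefficient of -0.471, against 0.151 to 0.243 elsewhere, and a fit with sample quality weights gave it a weight of 0.0899 against 1.07 to 3.79. Values without it are therefore given beside Cxcl1, Cxcl2, Cxcl5, Cxcl14, Cxcl16, Rel, Ifnb1 and Irf7, whose call or log2 fold change moved when it was left out. Among other named genes Adam10, Ifnar1 and Ier3, not called with all libraries, also passed the threshold without PGRN KO replicate 6. Genotypes were compared with limma on log2(FPKM + 1) for the 8882 genes with a mean of at least 1 FPKM, and a gene was called at a Benjamini-Hochberg adjusted p under 0.05. Of all tested genes 24.2% were called, 10.4% as higher and 13.8% as lower in PGRN KO. The balance of calls depended on scaling, since 42.8% of them were higher with the deposited values but 60.3% after rescaling to TPM and 62.9% when libraries were scaled by their summed fragments.

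The filter left 7 of the 10 members in the test, and Cxcl9, Cxcl11 and Cxcl13 fell below it. Of the 7 tested members 2 were called, Cxcl10 as significantly higher and Cxcl3 as significantly lower in PGRN KO. WT and PGRN KO values did not overlap for 4 of the 7, Cxcl1, Cxcl2, Cxcl3 and Cxcl10, where 48.8% of all tested genes had groups that did not overlap. With so few members these shares lie near those of all genes and are read only as counts. The median log2 fold change of the 4 neutrophil-attracting members was -0.60, against -0.03 over all tested genes, whose median absolute log2 fold change was 0.25.

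**Figure D1:**
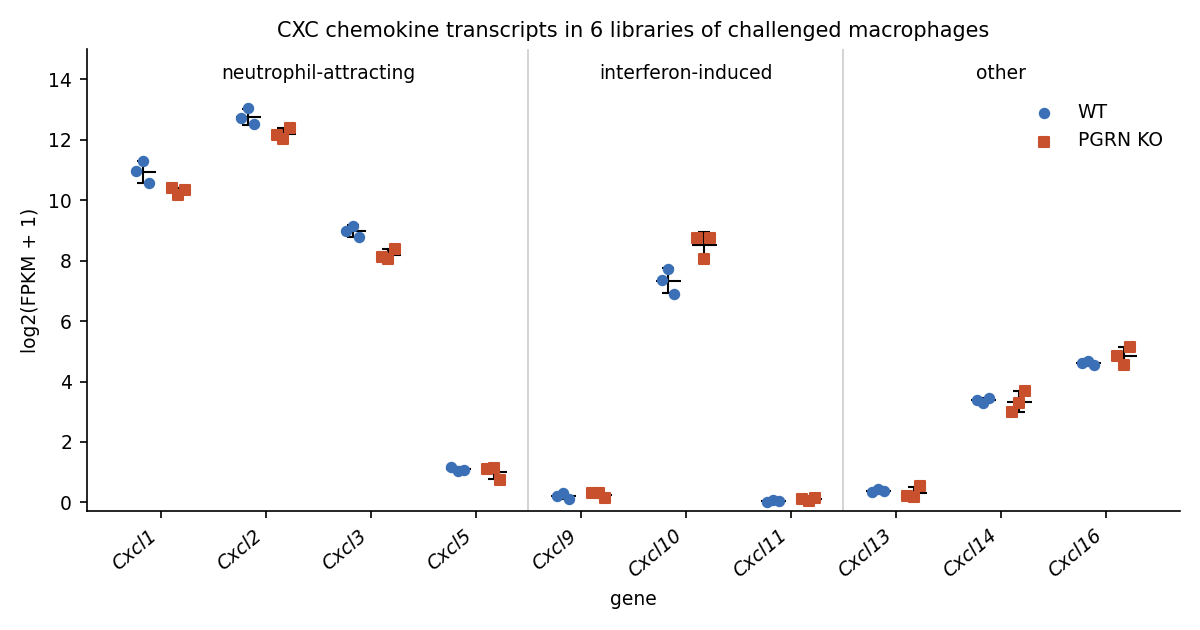
Transcript level of each CXC chemokine on the log2(FPKM + 1) scale in 3 WT libraries (circles) and 3 PGRN KO libraries (squares), with the mean and SD of each group in black. The points of Cxcl1, Cxcl2 and Cxcl3 lie lower in PGRN KO and those of Cxcl10 lie higher, without overlap, whereas Cxcl5, Cxcl9, Cxcl11 and Cxcl13 lie near the bottom in both genotypes.

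Cxcl2, Cxcl1 and Cxcl3 were among the most abundant transcripts of these cells. By group mean FPKM Cxcl2 ranked 5 among all genes in WT and 6 in PGRN KO, Cxcl1 ranked 22 and 37, and Cxcl3 ranked 93 and 162. In WT the order of FPKM levels was Cxcl2, Cxcl1, Cxcl3, Cxcl10, Cxcl16, Cxcl14, Cxcl5, Cxcl13, Cxcl9 and Cxcl11, and no neighbours in that order overlapped between libraries. In PGRN KO the mean of Cxcl10 moved above that of Cxcl3 and the remaining order was kept. There Cxcl10 and Cxcl3 overlapped, as did Cxcl13 and Cxcl9. The neutrophil-attracting members together took 1.90%, 2.24% and 1.70% of the fragments of WT replicates 1, 2 and 3. They took 1.36%, 1.29% and 1.48% of those of PGRN KO replicates 4, 5 and 6, with 95% Wilson intervals within 0.01 of a percentage point of each value. Such intervals cover counting error alone, because reads lacking molecular identifiers are not independent molecules. In bulk RNA, fewer cells that make a transcript and less of it per cell cannot be told apart.

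The FPKM levels of several members rest on gene models that include introns. The deposited length of Cxcl3 was 3498 bases, which equals its whole span on the genome, whereas its coding transcript in GENCODE M21 measures 1016 bases. The model is 3.44 times as long because a transcript with a retained intron is counted in. The corresponding lengths were 1875 and 953 bases for Cxcl1, 2068 and 1109 for Cxcl2, and 2252 and 1094 for Cxcl10. Divided by the coding transcript instead, Cxcl3 stood at 1747 ± 221 FPKM in WT and Cxcl10 at 340 ± 95.8 (SD, n = 3 each). In PGRN KO Cxcl3 ranged from 911 to 1157 FPKM per coding length and Cxcl10 from 547 to 894. On this scale Cxcl3 remained above Cxcl10 in both genotypes. Any fragments from introns of the model stay in these values and raise them, and their share was not measured. Which of these genes has more spliced transcript is therefore not settled. Dividing the fragments of 1 gene by another length leaves its FPKM ratio between genotypes unchanged.

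WT replicates 1, 2 and 3 held Cxcl3 (ENSMUSG00000029379, chromosome 5, 90786103 to 90789600, plus strand) at 507, 572 and 443 FPKM. PGRN KO replicates 4, 5 and 6 held it at 279, 265 and 336. Every PGRN KO library lay below every WT library, and the lowest WT and the highest PGRN KO value were 443 and 336. Its mean was 507 ± 64.2 FPKM in WT against 293 ± 37.8 in PGRN KO (SD, n = 3 each), or 57.8% of the WT mean. The log2 fold change was -0.79 ± 0.14 (SE), with a 95% interval of -1.12 to -0.46 and a limma adjusted p of 0.0101. The call held in 18 of 19 alternative analyses, with log2 fold changes from -0.89 to -0.69, and was lost without WT replicate 1, where the adjusted p was 0.0548. Of the 31-base words of its transcripts, the retained intron included, 4.56% occur also in Cxcl2. Reads from such stretches could be assigned to either gene, and their share was not measured.

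Cxcl1 (ENSMUSG00000029380, chromosome 5, 90891241 to 90893115, plus strand), the best known neutrophil attractant of the mouse, was measured at 2003, 2518 and 1518 FPKM in the WT libraries. The PGRN KO libraries gave 1349, 1158 and 1296 FPKM. The PGRN KO values were close together and below all WT values, whereas the WT values spread from 1518 in replicate 3 to 2518 in replicate 2. The log2 fold change was -0.64 ± 0.19 (SE), with a 95% interval of -1.10 to -0.18 and a limma adjusted p of 0.0526, so that Cxcl1 was not called. It passed the threshold in 12 of 19 alternative analyses, with adjusted p from 0.0101 to 0.173 and log2 fold changes from -0.83 to -0.46. Without PGRN KO replicate 6 the adjusted p was 0.0477.

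Cxcl2 (ENSMUSG00000058427, chromosome 5, 90903871 to 90905938, plus strand), the most abundant member in every library, was measured at 6779, 8476 and 5869 FPKM in the WT libraries. The PGRN KO libraries gave 4573, 4216 and 5404 FPKM. The groups did not overlap, with WT replicate 3 and PGRN KO replicate 6 lying nearest to each other. The mean was 7041 ± 1323 FPKM in WT against 4731 ± 610 in PGRN KO (SD, n = 3 each). The log2 fold change was -0.56 ± 0.18 (SE), with a 95% interval of -0.99 to -0.14 and a limma adjusted p of 0.0616, which missed the threshold. Cxcl2 passed in 9 of 19 alternative analyses, with adjusted p from 0.00430 to 0.316, and its log2 fold change stayed between -0.69 and -0.38. Without PGRN KO replicate 6 its adjusted p was 0.0185.

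Cxcl5 (ENSMUSG00000029371, chromosome 5, 90759360 to 90761624, plus strand), the remaining CXCR2 ligand of the set, was close to the filter at 1.25, 1.05 and 1.10 FPKM in the WT libraries. It stood at 1.15, 1.22 and 0.652 FPKM in the PGRN KO libraries, or 21 to 43 fragments in any library. The groups overlapped, and the low value was that of PGRN KO replicate 6. The log2 fold change was -0.10 with a 95% interval of -0.42 to 0.22 and a limma adjusted p of 0.616. Its sign changed without PGRN KO replicate 6, where it was 0.033.

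**Figure D2:**
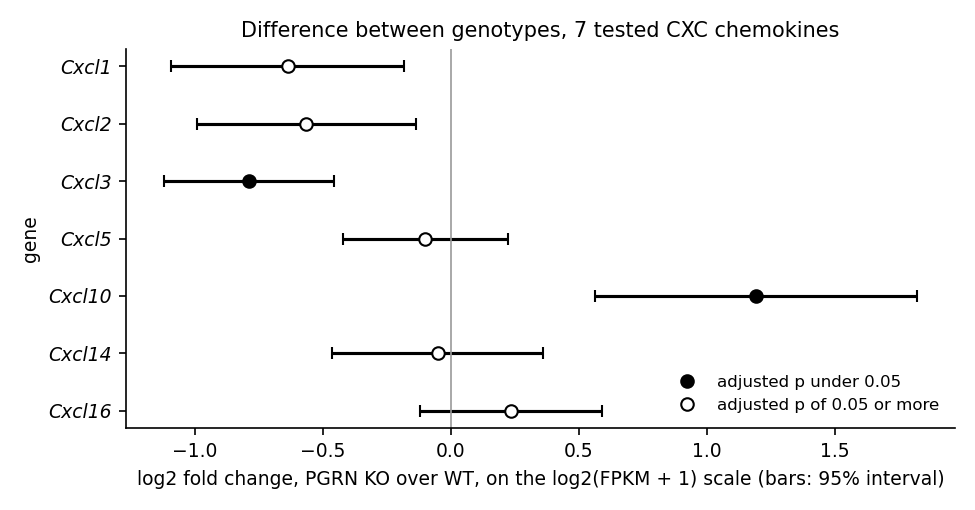
Log2 fold change of PGRN KO over WT for the 7 tested members on the log2(FPKM + 1) scale, with 95% intervals and with filled points where the limma adjusted p was under 0.05. Intervals of Cxcl1, Cxcl2 and Cxcl3 lie below 0, that of Cxcl10 lies above 0 at 0.56 to 1.82, and those of Cxcl5, Cxcl14 and Cxcl16 span 0.

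Cxcl10 (ENSMUSG00000034855, chromosome 5, 92346638 to 92348889, minus strand), an interferon-induced attractant of activated T cells, went the other way. WT replicates 1, 2 and 3 held 164, 212 and 119 FPKM. PGRN KO replicates 4, 5 and 6 held 434, 266 and 434. All PGRN KO values were above all WT values, and PGRN KO replicate 5 lay nearest to WT. The mean rose from 165 ± 46.5 to 378 ± 97.3 FPKM (SD, n = 3 each), and its rank among all genes moved from 312 to 118. The log2 fold change was 1.19 ± 0.27 (SE), a fitted ratio of 2.28, with a 95% interval of 0.56 to 1.82 and a limma adjusted p of 0.0207. It was the 87th largest increase among the 8882 tested genes.

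The increase of Cxcl10 kept its direction in all 19 alternative analyses, with log2 fold changes from 0.98 to 1.43, and passed the threshold in 15 of them. It failed when WT replicate 1, WT replicate 3 or PGRN KO replicate 4 was left out (limma adjusted p 0.0740, 0.0670 and 0.0611) and with no filter on low values (0.0686). For its 6 values an exact permutation test, two-sided, returned p = 0.1, the lowest possible with 3 against 3 libraries. Art3 overlaps the whole of Cxcl10 on the opposite strand, and the sources used here state no strand setting for the counting. Art3 itself was counted at 1 to 5 fragments per library.

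The other interferon-induced members were barely detected. Cxcl9 (ENSMUSG00000029417, chromosome 5, 92321347 to 92328079, minus strand) was represented by 8, 11 and 5 fragments in the WT libraries and by 12, 14 and 6 in the PGRN KO libraries. These are 0.0919 to 0.247 FPKM in WT and 0.115 to 0.245 in PGRN KO, and the groups overlapped. Summed over libraries there were 24 fragments in WT (95% Poisson interval 15.4 to 35.7) and 32 in PGRN KO (21.9 to 45.2), so no difference was detectable at this depth. Cxcl11 (ENSMUSG00000060183, chromosome 5, 92359544 to 92365485, minus strand) is annotated as a polymorphic pseudogene. It was represented by 0, 3 and 2 fragments in WT and 5, 3 and 7 in PGRN KO. A count of 0 in WT replicate 1 allows up to 3 fragments, or 0.0473 FPKM. Of its 31-base words 42.2% occur in other genes, 40.9% in Gm2673, so its few fragments are uncertain. The interferon-induced group is thus represented in the test by Cxcl10 alone.

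Among the members outside both groups, neither of the tested ones, Cxcl14 and Cxcl16, passed the threshold. Cxcl16 (ENSMUSG00000018920, chromosome 11, 70453983 to 70459984, minus strand) was measured at 23.4, 24.5 and 22.4 FPKM in WT. In PGRN KO it was measured at 27.9, 22.4 and 34.1 FPKM, with replicate 5 inside the WT range. Its log2 fold change was 0.23 with a 95% interval of -0.12 to 0.59 and a limma adjusted p of 0.287. Leaving out PGRN KO replicate 6 brought the Cxcl16 value to 0.090 (adjusted p 0.499), and leaving out PGRN KO replicate 5 brought it to 0.38 (adjusted p 0.0767). The gene shares 18.5% of its 31-base words with Zmynd15, which overlaps it on the opposite strand and was counted at 62 to 114 fragments per library. Cxcl14 (ENSMUSG00000021508, chromosome 13, 56288643 to 56296551, minus strand) was measured at 9.59, 8.77 and 9.98 FPKM in WT and at 7.02, 8.79 and 11.97 in PGRN KO. The PGRN KO values of Cxcl14 enclosed those of WT, and the log2 fold change was -0.05 with a 95% interval of -0.46 to 0.36 and a limma adjusted p of 0.845. Leaving out PGRN KO replicate 6 brought the Cxcl14 value to -0.24, and leaving out PGRN KO replicate 4 turned it to 0.11. Cxcl13 (ENSMUSG00000023078, chromosome 5, 95956951 to 95961068, plus strand) was represented by 5, 6 and 6 fragments in WT and 3, 3 and 9 in PGRN KO. Its groups overlapped, with 17 fragments in WT in all (95% Poisson interval 9.90 to 27.2) and 15 in PGRN KO (8.40 to 24.7).

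To compare the neutrophil-attracting with the interferon-induced members independently of library scaling, Cxcl10 was expressed relative to each of the others within its own library. Relative to Cxcl1, Cxcl10 stood at 8.19%, 8.44% and 7.86% in WT replicates 1, 2 and 3. The same ratio was 32.2%, 23.0% and 33.5% in PGRN KO replicates 4, 5 and 6. The WT values lay within 0.6 of a percentage point of each other although the FPKM of both genes varied among the same libraries, and the mean was 8.16% ± 0.287 against 29.5% ± 5.75 in PGRN KO (SD, n = 3 each). Relative to Cxcl2, Cxcl10 stood at 2.42%, 2.51% and 2.03% in WT and at 9.495%, 6.31% and 8.04% in PGRN KO. Relative to Cxcl3, it stood at 32.4%, 37.1% and 26.9% in WT and at 156%, 100.4% and 129% in PGRN KO. In each of these ratios the groups did not overlap, and the PGRN KO mean was 3.62, 3.42 and 3.995 times the WT mean. The percentages themselves depend on the lengths of the gene models, which include introns. Another length for the same fragments leaves the fold between genotypes unchanged. Any fragments from those introns are counted as well, and the fold over exons alone was not measured. Per coding length, with any fragments from introns still counted, Cxcl3 stayed above Cxcl10 in PGRN KO, at 911 to 1157 against 547 to 894 FPKM.

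**Figure D3:**
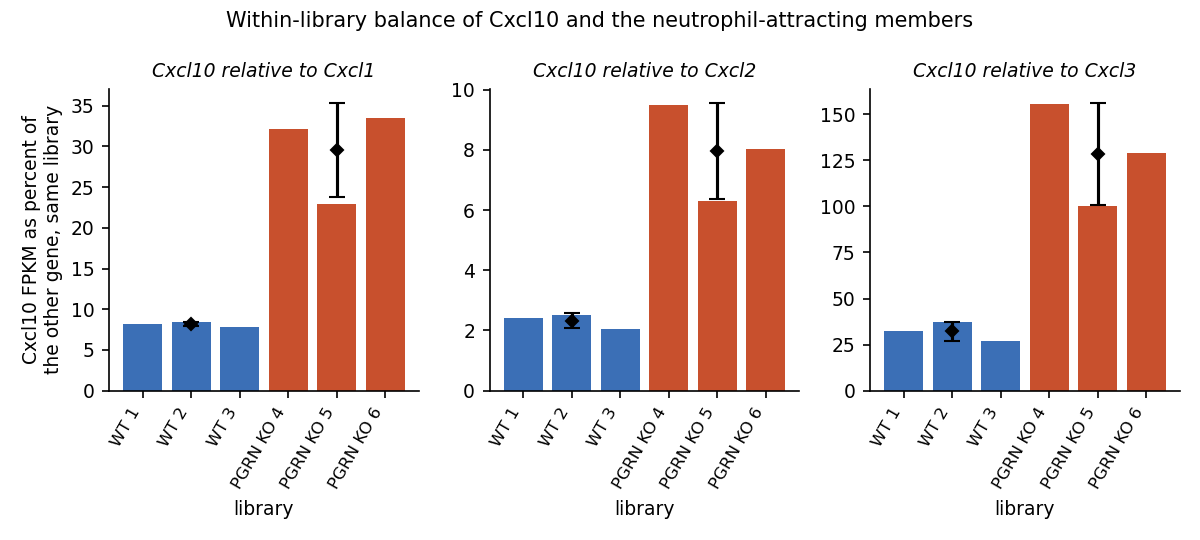
FPKM of Cxcl10 as a percentage of the FPKM of Cxcl1, Cxcl2 or Cxcl3 in the same library, with WT libraries in blue, PGRN KO libraries in red, and the mean and SD of each group as a diamond with bars. Every PGRN KO bar is taller than every WT bar in all 3 panels, and PGRN KO replicate 5 is the lowest of its group. The heights depend on the deposited gene lengths, which include introns.

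Within the neutrophil-attracting group the proportions moved less. The ratio of Cxcl2 to Cxcl1 was 3.54 ± 0.284 in WT against 3.73 ± 0.398 in PGRN KO (SD, n = 3 each), with overlapping values. The ratio of Cxcl2 to Cxcl3 was 13.8 ± 0.880 in WT and 16.1 ± 0.231 in PGRN KO and did not overlap. In WT, replicate 2 was the highest and replicate 3 the lowest library for Cxcl1, Cxcl2, Cxcl3, Cxcl10 and Cxcl16 alike. The library sizes that the authors divided by relate to the summed fragments in the reverse order, at 0.925 in replicate 2, 0.974 in replicate 1 and 1.03 in replicate 3. In PGRN KO, where that ratio was 1.05, 1.09 and 1.00 in replicates 4, 5 and 6, replicate 5 was the lowest library for the same 5 genes. As shares of summed fragments, which do not use those sizes, Cxcl1, Cxcl2, Cxcl3 and Cxcl10 kept the WT order, and PGRN KO replicate 5 stayed lowest. Cxcl10 took 0.0360%, 0.0442% and 0.0276% in WT replicates 1, 2 and 3. In PGRN KO replicates 4, 5 and 6 it took 0.1025%, 0.0651% and 0.0978%. No such share was taken for Cxcl16. With summed fragments as library size the log2 fold change was -0.54 for Cxcl1, -0.46 for Cxcl2, -0.69 for Cxcl3 and 1.29 for Cxcl10. Beyond these shares and the rescaled fits, the part of library scaling in the orders was not tested. As a summary per library, the mean log2(FPKM + 1) of the 4 neutrophil-attracting members minus that of Cxcl10 was 1.10, 0.90 and 1.33 in WT and -0.82, -0.20 and -0.80 in PGRN KO, a difference of -1.72. That mean weights Cxcl5, at 1.01 FPKM in PGRN KO, like the abundant members, so its sign does not show which group was more abundant. In PGRN KO the summed FPKM was 6293 ± 703 for the neutrophil-attracting members and 378 ± 97.3 for the interferon-induced members (SD, n = 3 each).

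The genes around the chemokines were then examined, beginning with their receptors, from lists chosen with earlier results of these data known. The counts of called genes in these lists stand against the 24.2% of all tested genes that were called, and lists of a few genes are read only as counts. Of 8 receptors 4 were tested, 2 of them were lower and 1 was higher in PGRN KO. Cxcr4, the receptor of CXCL12, fell from 24.9, 23.5 and 30.1 FPKM in WT to 14.2, 15.1 and 14.8 in PGRN KO (log2 fold change -0.78 ± 0.11, SE, limma adjusted p 0.00502). Ackr3, which scavenges CXCL12, fell from 2.26 ± 0.294 to 1.21 ± 0.0962 FPKM (SD, n = 3 each; adjusted p 0.0120). Cxcr5, the CXCL13 receptor of B cells, rose from 0.792 ± 0.151 to 1.68 ± 0.242 FPKM (adjusted p 0.0136). The summed B cell markers were also higher in PGRN KO, at 6.31 to 8.77 FPKM against 1.41 to 2.47 in WT, with Cd79a and Cd79b called and none of the 4 at 0, and their part in the Cxcr5 result was not tested. Cxcr6, the receptor of CXCL16, was at 2.85 ± 0.212 FPKM in WT and 3.01 ± 0.592 in PGRN KO. Cxcr2, the receptor of the neutrophil-attracting members, was at 0 in every library, Cxcr1 did not exceed 0.0907 FPKM, and Cxcr3 did not exceed 0.312.

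Of the CXC ligands outside the set, Pf4 (also named Cxcl4) was well expressed, at 53.0, 60.8 and 53.3 FPKM in WT and 53.3, 46.6 and 70.9 in PGRN KO, with overlapping groups. Cxcl15 was at 0 in every library, and Cxcl12, Cxcl17 and Ppbp did not exceed 0.187 FPKM. Among 6 tested proteases known to shed or trim chemokines 3 were lower and 0 higher in PGRN KO. Mmp9, a gelatinase that trims CXC chemokines, fell from 1.79 ± 0.204 to 0.320 ± 0.138 FPKM (SD, n = 3 each) (log2 fold change -1.08 ± 0.12, SE, limma adjusted p 0.00211). Adam17, a sheddase, fell from 25.1 to 18.9 FPKM on average (adjusted p 0.0217), and Mmp12, a macrophage elastase that cleaves CXCR2 ligands, fell from 371 to 280 FPKM (adjusted p 0.0302). Adam17 and Mmp12 lost their calls with summed fragments as library size. The other tested proteases had overlapping groups and were not called. Their log2 fold changes were -0.059 for Mmp8 (limma adjusted p 0.717), 0.0012 for Mmp14 (0.994) and 0.067 for Adam10 (0.745). The sign of Adam10 changed in 2 of 19 alternatives. It was called higher in 3 of them, 1 of which left out only PGRN KO replicate 6. Dpp4 fell below the filter and was not tested. Its PGRN KO libraries held 35, 42 and 28 fragments, all above the 12, 13 and 10 of the WT libraries.

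The NF-kB list held 9 tested genes, of which 2 were lower and 0 higher, a share near the 24.2% called among all tested genes. Nfkbiz, which encodes an inducible nuclear cofactor of NF-kB, fell from 418, 500 and 334 FPKM in WT to 270, 222 and 198 in PGRN KO (log2 fold change -0.85 ± 0.18, SE, limma adjusted p 0.0177). Nfkb1, which encodes the p50 precursor, fell from 85.2 ± 5.69 to 59.5 ± 6.68 FPKM (SD, n = 3 each; adjusted p 0.0193). Rel and Tnfaip3 had groups that did not overlap, with log2 fold changes of -0.68 and -0.59 and adjusted p of 0.0528 and 0.0666. Without PGRN KO replicate 6 the value of Rel was -0.45 with an adjusted p of 0.0158, and Rel passed also without PGRN KO replicate 4 (0.0483). Tnf, a main inflammatory product of macrophages, was at 7294, 9267 and 5418 FPKM in WT and 6206, 4974 and 6447 in PGRN KO, with overlapping groups and an adjusted p of 0.365. Without WT replicate 1 or WT replicate 2 no gene of the list was called. Of 3 genes for factors that control the stability of chemokine mRNA 2 were lower, Zc3h12a (Regnase-1, 338 to 258 FPKM on average, adjusted p 0.0345) and Elavl1 (HuR, 7.41 to 5.64 FPKM, adjusted p 0.0258), and the count was 0 without any single library other than PGRN KO replicate 6. Zfp36, which encodes the mRNA-destabilizing protein tristetraprolin, had a mean of 351 FPKM in WT and 293 in PGRN KO and was not called.

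The interferon list held 16 tested genes, of which 3 were higher, 1 was lower and 12 were not called, again a share near the 24.2% of all tested genes. Usp18, an interferon-induced brake on the type I receptor, rose from 72.0, 85.9 and 64.2 FPKM to 138, 110 and 166 (limma adjusted p 0.0144). Stat2 rose from 44.0 ± 2.57 to 64.8 ± 7.61 FPKM (SD, n = 3 each; adjusted p 0.0157), and Tyk2, a receptor-associated kinase, from 2.50 ± 0.0868 to 4.41 ± 0.574 (adjusted p 0.00866). Jak1, another such kinase, fell from 63.0 ± 2.84 to 40.9 ± 5.99 FPKM (adjusted p 0.0146). The interferon gene Ifnb1 was at 5.66, 6.94 and 3.62 FPKM in WT and 7.39, 5.42 and 8.95 in PGRN KO, with overlapping groups, a log2 fold change of 0.38 (0.23 when PGRN KO replicate 6 was left out) and an adjusted p of 0.274. Irf7, a regulator that interferon induces, did not overlap between groups and had a log2 fold change of 0.57 with an adjusted p of 0.0775. Its value was 0.38 without PGRN KO replicate 6 (adjusted p 0.0689), and it passed without PGRN KO replicate 5 (0.77, adjusted p 0.0253). Over the alternative analyses 1 to 7 genes of the list were higher and 0 or 1 lower, and the count of 1 higher gene, Tyk2, came when WT replicate 1 or WT replicate 3 was left out. Of the 14 genes called in these lists, Cxcr4, Mmp9 and Tyk2 passed in every alternative that tested them, while the other 11 were lost without WT replicate 1. On the TPM scale Adam17, Mmp12, Nfkb1, Elavl1 and Jak1 lost their calls. Scaling by summed fragments also removed the call of Elavl1 (adjusted p 0.0808), as did the gene length correction, where its log2 fold change went from -0.34 to -0.20 (adjusted p 0.282).

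**Figure D4:**
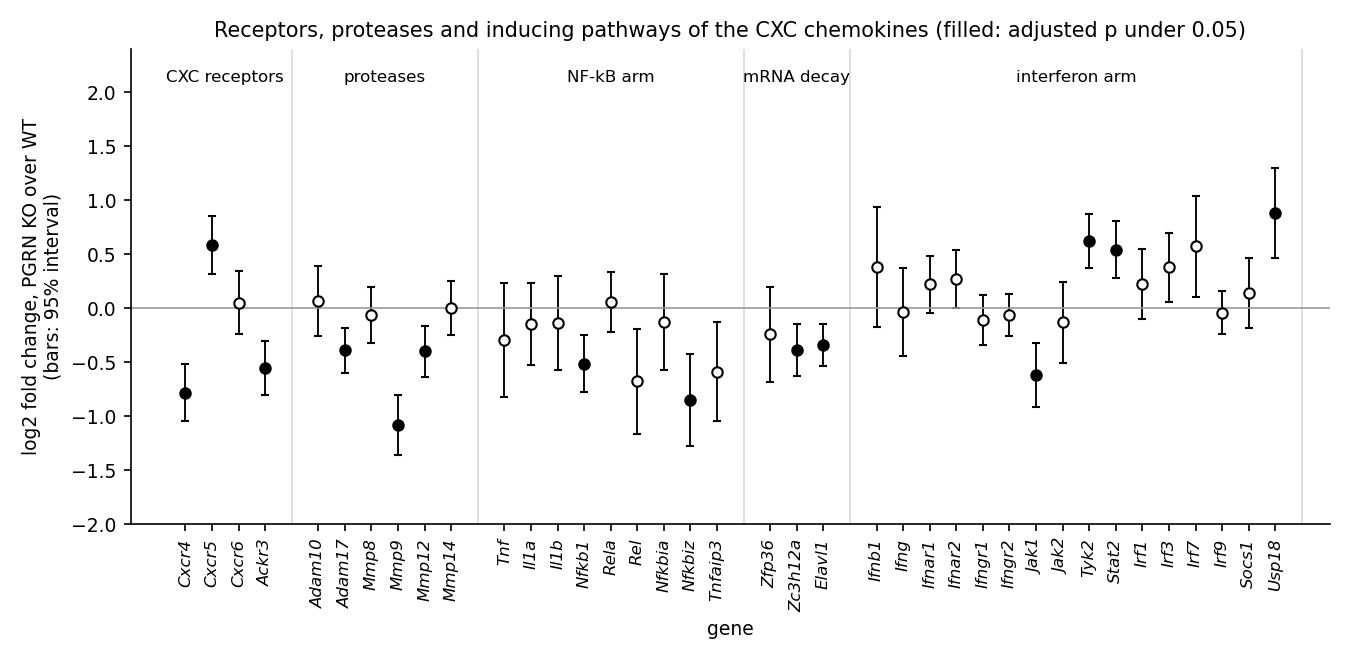
Log2 fold change of PGRN KO over WT, with 95% intervals, for the tested genes of the receptor, protease, NF-kB, mRNA decay and interferon lists, with filled points where the limma adjusted p was under 0.05. Filled below 0 are Cxcr4, Ackr3, Adam17, Mmp9, Mmp12, Nfkb1, Nfkbiz, Zc3h12a, Elavl1 and Jak1. Cxcr5, Tyk2, Stat2 and Usp18 are filled above 0.

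The genes whose pattern over the 6 libraries was most like that of the leading member of each group were found from the root mean square difference of log2(FPKM + 1), centred on the mean of the gene, among 8082 tested genes without predicted models. For Cxcl2, whose own profile had a root mean square of 0.339, the nearest were Ier3 (an immediate early gene, 0.0342), Sdc4 (syndecan-4, 0.0562), Rcl1 (0.0565), Dusp2 (a phosphatase of MAP kinases, 0.0851) and Cdc42ep2 (0.0874). Among members Cxcl1 came 22nd at 0.115 and Cxcl3 came 32nd at 0.124. For Cxcl10, with a root mean square of 0.684, the nearest were AW112010 (0.102), Il18 (the cytokine interleukin-18, 0.133), Gbp2 (an interferon-induced GTPase, 0.135), Tpst1 (a tyrosine sulfotransferase, 0.136) and Adm (adrenomedullin, 0.143). Gbp2 rose from 96.3 ± 19.7 to 251 ± 47.0 FPKM and Il18 from 4.99 ± 1.16 to 11.8 ± 2.29 (SD, n = 3 each). Likeness over 6 libraries of 2 genotypes is a description and rests largely on the difference between genotypes.

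Markers were used to check the labelled cell type. All 7 macrophage markers were present, with Adgre1, which encodes F4/80, at 178 to 195 FPKM in WT and 162 to 189 in PGRN KO and Lyz2 at 5657 to 5851 and 5873 to 8135. Of the 7, Csf1r was lower in PGRN KO (32.5 ± 1.29 to 24.7 ± 0.905 FPKM, SD, n = 3 each, limma adjusted p 0.0178), Mertk was higher (1.41 ± 0.229 to 3.24 ± 0.514, adjusted p 0.00640), and the other 5 were not called. Itgam did not overlap between groups, at 49.9 to 50.6 FPKM in WT and 41.3 to 45.1 in PGRN KO. Gata6, a factor of large peritoneal macrophages, was at 3.95 ± 0.264 FPKM in WT and 4.50 ± 0.621 in PGRN KO. Of the other two markers of that type, Icam2 was higher in PGRN KO (3.10 ± 0.163 to 5.10 ± 0.526 FPKM, limma adjusted p 0.00914) and Timd4 was nearly absent, at 2 to 8 fragments in WT and 0 to 2 in PGRN KO. Of the 8 neutrophil markers Ly6g and Elane were at 0 in every library, and the sum of the list was 48.8 to 53.1 FPKM in WT and 21.5 to 26.6 in PGRN KO, nearly all of it S100a8. Summed markers of mast cells were at 1.36 to 1.75 FPKM in WT and 5.04 to 7.24 in PGRN KO. Cpa3, Mcpt4 and Cma1 were higher there, but Kit was lower on average, at 0.345 FPKM in WT and 0.210 in PGRN KO. The summed list of mesothelial cells and fibroblasts was at 0.967 to 1.09 FPKM in WT and 1.80 to 3.27 in PGRN KO. Its rise lay in Col1a1, Col3a1 and Dcn, while Msln, Upk3b, Krt19 and Lum had lower means in PGRN KO. Summed dendritic cell markers were at 1.77 to 2.23 FPKM in WT and 1.08 to 1.36 in PGRN KO. Flt3 and Xcr1 were lower in PGRN KO, but Zbtb46 was higher on average, at 0.550 FPKM in WT and 0.698 in PGRN KO. T cell markers were at 2.00 to 2.79 and 2.30 to 4.41 FPKM, and eosinophil markers did not exceed 0.199, with Epx and Prg2 at 0. The part of these cells in the chemokine differences was not tested.

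**Figure D5:**
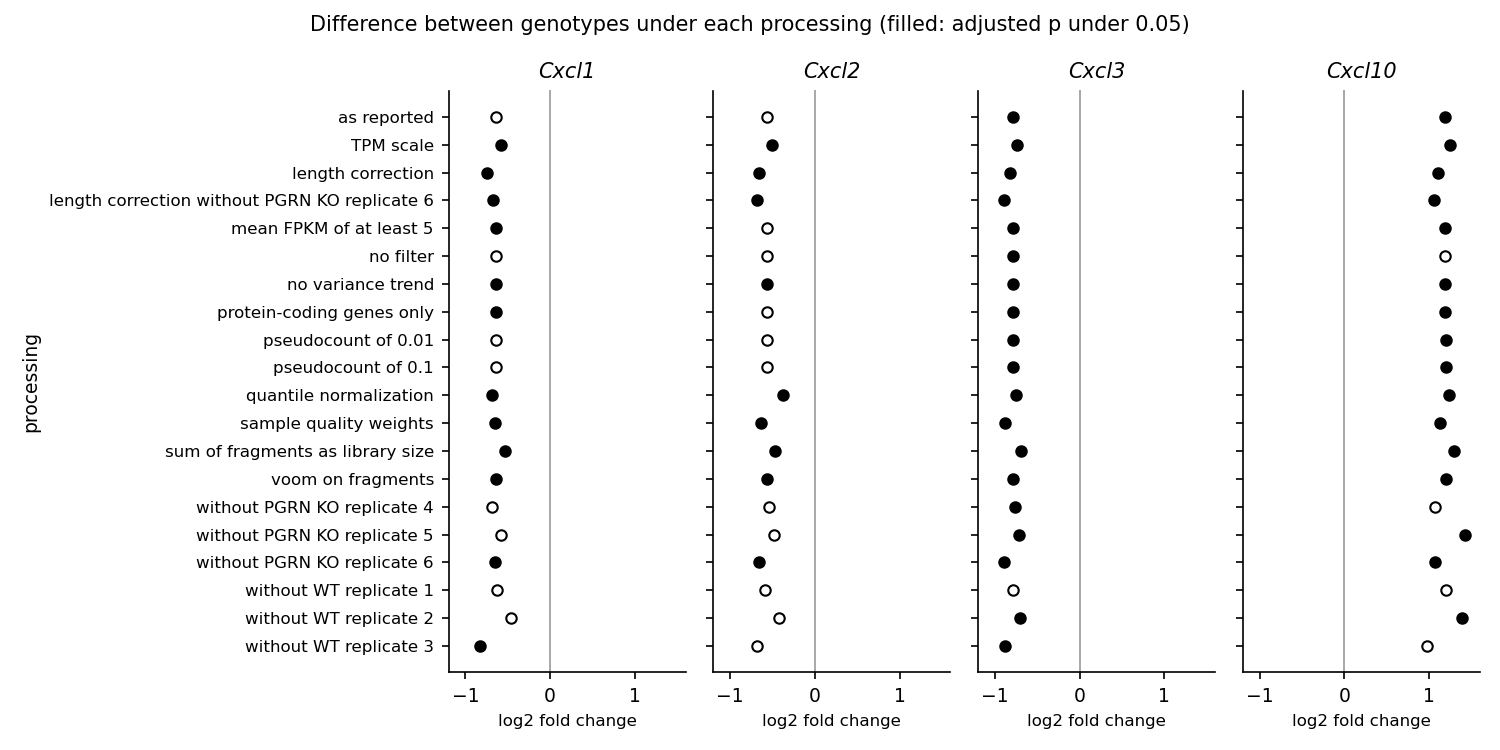
Log2 fold change of Cxcl1, Cxcl2, Cxcl3 and Cxcl10 in the reported analysis and in 19 alternatives, with filled points where the limma adjusted p was under 0.05. All points of Cxcl1, Cxcl2 and Cxcl3 lie below 0 and all points of Cxcl10 lie above 0, while the filling changes most often for Cxcl1 (12 of 19 filled) and Cxcl2 (9 of 19).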

How the data were processed

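Macrophages of 3 WT and 3 PGRN KO libraries were sequenced. Per the study's methods, mRNA libraries were made with the NEBNext Ultra kit. The submitters' processing notes name HISAT2 2.0.5, featureCounts 1.5.0-p3, DESeq2 1.20.0 and the builds mm10 and GRCm38, whereas the methods name HISAT and HTSeq. The sources used here give neither the annotation release nor the strand setting. The authors deposited FPKM per gene and library. Multiplied by gene length, 100% of the values above 0 came out as whole multiples of a step particular to each library (tolerance 0.001 of a step), which gave fragment counts of 15996786 to 17551619 per library. The sizes divided by were 0.925 to 1.09 times those sums. Of 54532 genes, 53462 matched GENCODE M21 in coordinates, all 10 members included.

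From these values, log2(FPKM + 1) was compared between genotypes with limma 3.58.1 in R 4.3.3 (empirical Bayes with a variance trend, two-sided, Benjamini-Hochberg over 8882 genes with a mean of at least 1 FPKM). On the log2(FPKM + 1) scale the change of low genes is understated. Simulated fragments (8882 genes, 10 draws) had independent libraries, a dispersion of 0.02 for every gene and 200 genes changed by 1 on the log2 scale. The procedure recovered 86.6% of these, and 8.1% of its calls were false, more than the threshold of 0.05 allows for. No simulated library deviated as PGRN KO replicate 6 did, so these rates need not hold for the calls reported here. Alternatives covered pseudocounts, filters, scalings, weights, a gene length correction by loess (span 0.5), voom on recovered fragments and leaving out each library. The members, lists and named genes (Grn, the members, the pathway lists, the 5 most alike per group, overlapping genes) were chosen with earlier results of these data known. A listed gene is not reported here and is left out of the counts of its list.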

Additional observations from a re-analysis of the deposited data

How the results depend on the processing

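Over 19 alternatives the log2 fold changes of the 7 tested members gave 132 values, of which 102 kept both direction and side of the threshold, 21 passed it where the reported value had not, 5 no longer passed it and 4 changed sign. The sign changes were those of Cxcl5 when PGRN KO replicate 6 was left out (0.033, where leaving out other libraries gave values down to -0.18), also with the length correction added (0.017), and of Cxcl14 with summed fragments as library size (0.037) and without PGRN KO replicate 4 (0.111, where leaving out other libraries gave values down to -0.24). Tnf turned to 0.037 with quantile normalization. The number of members called was 2 as reported. It was 4 (Cxcl1, Cxcl2, Cxcl3 and Cxcl10) on the TPM scale, with the length correction, with that correction and PGRN KO replicate 6 left out, with no variance trend, with quantile normalization, with sample quality weights, with summed fragments as library size and with voom, and 1 with no filter, where only Cxcl3 passed. Leaving out 1 library at a time, it ranged from 0 without WT replicate 1 to 4 without PGRN KO replicate 6, and was 1 without PGRN KO replicate 4. The difference of the groups' mean log2 levels moved from -1.72 to -0.95 with no filter, since Cxcl9 and Cxcl11 then entered. Of all genes 2151 were called as reported, 3684 with the length correction and PGRN KO replicate 6 left out, 4225 with sample quality weights, 2267 with voom, 1366 with no filter, and 713 (without WT replicate 1) to 3668 (without PGRN KO replicate 6) with 1 library left out. Except where the construction of an alternative shows it, the cause was not tested. No paired analysis was possible because the replicate numbers of the genotypes do not coincide. Depth limits what can be said of Cxcl9, Cxcl11 and Cxcl13, which had at most 14 fragments in any library.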
